A study of Homo sapiens with 2 samples.

Results

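The 9 genes described here encode the main cytosolic HSP70 and HSP90 chaperones of human cells and the mitochondrial chaperonin: HSPA1A, HSPA1B, HSPA8, HSPH1, DNAJB1, HSP90AA1, HSP90AB1, HSPD1 and HSPE1. They were picked by name, with earlier results of these data known. They make up 9 of the 16387 genes listed in the count tables of both libraries. Their transcripts were counted in single MCF10A cells, a human breast epithelial line that is not tumorigenic and needs epidermal growth factor (EGF) to proliferate. Cells received the MEK inhibitor for the last part of a 20 h EGF stimulation, the PI3K inhibitor over the same time, or EGF alone for 20 h. The same 3 treatments were sampled at 30 h of EGF, and cells at 15 h of EGF and unstimulated cells (0 h) completed the set. Both inhibitors were added at 15 h. Neither their names nor their doses appear in the sources read here. All 8 conditions came from the same line, were marked with sample tags and pooled into 1 library for each of 2 biological replicates, so a value has n = 2.

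Chaperones bind unfolded or partly folded proteins and release them in cycles driven by ATP. HSPA8 is the constitutive cytosolic HSP70, HSPA1A and HSPA1B are neighbouring genes for the stress-inducible HSP70, DNAJB1 is a J-domain protein that delivers clients and starts ATP hydrolysis by HSP70, and HSPH1 is a nucleotide exchange factor that resets it. HSP90AA1 (the more stress-inducible form) and HSP90AB1 (the constitutive form) finish the folding of kinases and steroid receptors. HSPD1 (HSP60) forms the folding chamber of the mitochondrial matrix and HSPE1 (HSP10) is its lid. Transcription of the stress-induced genes is activated by HSF1, which binds heat shock elements, runs of inverted 5-base units. EGF signals through MEK to ERK and through PI3K to AKT, and both branches act on protein synthesis and growth.

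The promoters below are shown for the letters of the heat shock element, which most of these genes hold near a start and HSPE1 does not. They are the 250 bases before the annotated start from RefSeq on GRCh38.p14, written 5′ to 3′ on the gene's strand, with capitals marking each pair of inverted units (GAANNTTC or TTCNNGAA, the same letters on both strands).
HSPA1A, chr6:31815293-31815542, plus strand: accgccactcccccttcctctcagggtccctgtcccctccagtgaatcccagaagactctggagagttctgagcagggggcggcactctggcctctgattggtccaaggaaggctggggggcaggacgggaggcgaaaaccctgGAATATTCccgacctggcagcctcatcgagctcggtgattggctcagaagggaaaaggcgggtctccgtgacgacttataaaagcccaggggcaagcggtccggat
HSPA8, chr11:123062137-123062386, minus strand: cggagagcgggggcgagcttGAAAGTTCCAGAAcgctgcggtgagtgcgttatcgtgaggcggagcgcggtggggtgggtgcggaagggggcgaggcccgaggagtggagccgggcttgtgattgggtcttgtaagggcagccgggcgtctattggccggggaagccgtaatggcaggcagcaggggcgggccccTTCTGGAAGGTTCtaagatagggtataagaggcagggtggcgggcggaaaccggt
HSP90AA1, chr14:102087045-102087294, minus strand: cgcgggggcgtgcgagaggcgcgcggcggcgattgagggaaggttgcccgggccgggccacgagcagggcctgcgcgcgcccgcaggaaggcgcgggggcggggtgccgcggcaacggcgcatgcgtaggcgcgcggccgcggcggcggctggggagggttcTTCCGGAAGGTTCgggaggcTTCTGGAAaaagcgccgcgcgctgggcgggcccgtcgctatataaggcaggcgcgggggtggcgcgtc
HSPD1, chr2:197499841-197500090, minus strand: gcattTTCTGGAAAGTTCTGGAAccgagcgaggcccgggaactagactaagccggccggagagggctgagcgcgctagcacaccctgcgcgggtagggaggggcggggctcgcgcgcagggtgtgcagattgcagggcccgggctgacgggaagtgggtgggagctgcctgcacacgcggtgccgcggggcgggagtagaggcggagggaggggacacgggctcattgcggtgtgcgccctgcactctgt
HSPE1, chr2:197500129-197500378, plus strand: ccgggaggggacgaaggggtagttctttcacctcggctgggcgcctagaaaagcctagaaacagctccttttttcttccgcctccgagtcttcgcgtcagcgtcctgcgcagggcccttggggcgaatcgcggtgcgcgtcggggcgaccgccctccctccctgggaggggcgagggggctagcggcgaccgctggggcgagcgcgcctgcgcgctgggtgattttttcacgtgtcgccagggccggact

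All 9 genes matched the RefSeq promoter table, with 15 start sites in all. In windows from 250 bases before to 50 bases after the start, 4 genes (HSP90AA1, HSP90AB1, HSPA8 and HSPD1) had at least 1 run of 3 units (TTCNNGAANNTTC, both strands), which 172 of all 35116 promoters of the same length held (0.490%). HSPA8, HSP90AB1 and HSPD1 had 2 such runs each at 1 start. The first bases of these runs lay 55 and 230 bases before the HSPA8 start, 88 before that of HSP90AA1, and 112 and 165 before that of HSP90AB1. A pair of units, which overlaps every run of 3, was found in 7 of the 9 genes (8 of their 15 listed promoters, against 13.5% of all promoters), and runs of 3 stood in 4 of the 15. HSPA1A and HSPA1B held 1 pair each, 106 and 105 bases before the start, and a TATAAA box 30 and 29 bases before it. HSPE1 and HSPH1 held neither form in these windows. HSPD1 and HSPE1 stand head to head on chromosome 2. The 2 overlapping runs of HSPD1 begin 245 bases before its own start and span 18 bases. These lie 294 to 311 bases before the RefSeq start of HSPE1 used here. In GENCODE v29 the HSPE1 gene begins earlier, at base 197499994, so the same 18 bases (197500068 to 197500085) lie within it. The upstream bases of HSPA1A and HSPA1B were 93.6% identical.

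The libraries held 2616 and 2221 cells with 33089090 and 28542571 UMIs (unique molecular identifiers, each counted as a captured molecule), at median depths of 12259 and 12332 UMIs per cell, and shared 0 cell barcodes. Counts were summed over the cells of each condition and library, which gave 16 sums of 213216 to 8508948 UMIs from 29 to 616 cells. Unstimulated cells of library 2, with 29 cells, stood apart: their G2/M genes summed to 2186 CPM (UMI counts scaled to 1e6) against 742 CPM in library 1. Epithelial markers summed to 15354 to 32970 CPM in every sum, against at most 96.3 CPM for fibroblast, 9.29 CPM for blood and 4.88 CPM for endothelial markers. Each comparison used the quasi-likelihood F test of edgeR over all 16 sums, with a term for the library (the block). Its p was adjusted by Benjamini-Hochberg over 11147 genes, and adjusted values under 0.05 were called. All 9 chaperone genes passed the filter on low counts. Where groups are said not to overlap, each held 2 values, and the share of all genes without overlap was not counted. Levels below are CPM on TMM-scaled library sizes, shares of the transcripts captured rather than molecules per cell, and median UMIs per cell ran from 7024 in unstimulated cells to 16000 at 30 h of EGF. Low-cycling cells are those below the median of their library for both the S phase and the G2/M gene list, a range of 2 scores and no cell type, and 16.5% and 12.2% of cells lay within 10% of a limit. Per 1e6 UMIs of a cell, the S phase medians were 890 and 1321 in libraries 1 and 2. The G2/M medians were 1299 and 3378, so shares of low-cycling cells compare conditions within a library and not the libraries.

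EGF stimulation for 15 h raised most of these chaperone transcripts. Of the 9 genes, 6 were higher and 1 was lower than in unstimulated cells, beside 28.0% (14.1% higher and 13.9% lower) of all genes called in this comparison, and their median log2 difference was 0.71 against 0.02 over all genes. HSPA8 stood at 1669 and 1636 CPM in libraries 1 and 2 at 15 h, against 622 and 901 CPM in unstimulated cells. The groups did not overlap, and the difference of 1.20 ± 0.11 (log2, SE), or 2.30-fold, had an adjusted p of 1.45e-12. HSPA8 was the member with the largest rise in this comparison.

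The HSP90 genes followed. HSP90AA1 had 1076 and 906 CPM at 15 h, against 473 and 702 CPM in unstimulated cells (0.88 ± 0.12, adjusted p = 1.28e-07). HSP90AB1 had 1310.2 and 1244 CPM at 15 h and 688 and 791 CPM in unstimulated cells (0.83 ± 0.11, adjusted p = 1.31e-08). In both genes the stimulated sums lay above the unstimulated ones. The chaperonin pair did the same: HSPD1 had 658 and 684 CPM against 363 and 433 CPM (0.79 ± 0.11, adjusted p = 1.07e-07). HSPE1 had 1040.0 and 755 CPM at 15 h against 552 and 596 CPM without EGF (0.71 ± 0.11, adjusted p = 1.80e-06). The 5 calls of HSPA8, HSP90AA1, HSP90AB1, HSPD1 and HSPE1 held under each of the 12 alternatives that gave a test. The S phase genes moved with them, 28 of 40 tested being higher at 15 h, beside 14.1% of all genes. Their part in these differences was not tested.

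HSPA1A, DNAJB1, HSPA1B and HSPH1 were called higher, lower or not at all at 15 h. HSPA1A had 144 and 122 CPM at 15 h, against 97.0 and 110.4 CPM in unstimulated cells (0.47 ± 0.17, adjusted p = 0.0295). This call was lost in 7 of 12 alternatives, among them leaving out either unstimulated sum or library 1 at 15 h. In library 1 at 15 h, 1 of 482 cells thinned to 5000 UMIs held 26 of the 376 HSPA1A UMIs (6.91%), and the next cell held 5. DNAJB1 had 72.8 and 66.7 CPM at 15 h, against 127 and 66.3 CPM in unstimulated cells (-0.68 ± 0.17, adjusted p = 0.00189). Only library 1 showed the fall: without its unstimulated sum the difference was 0.31 with an adjusted p of 0.720. HSPA1B (32.8 and 21.3 CPM at 15 h, against 21.1 and 35.3 CPM) and HSPH1 (219.7 and 196 CPM, against 166 and 186 CPM) did not pass the test, with adjusted p of 0.346 and 0.0605.

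**Figure D1:**
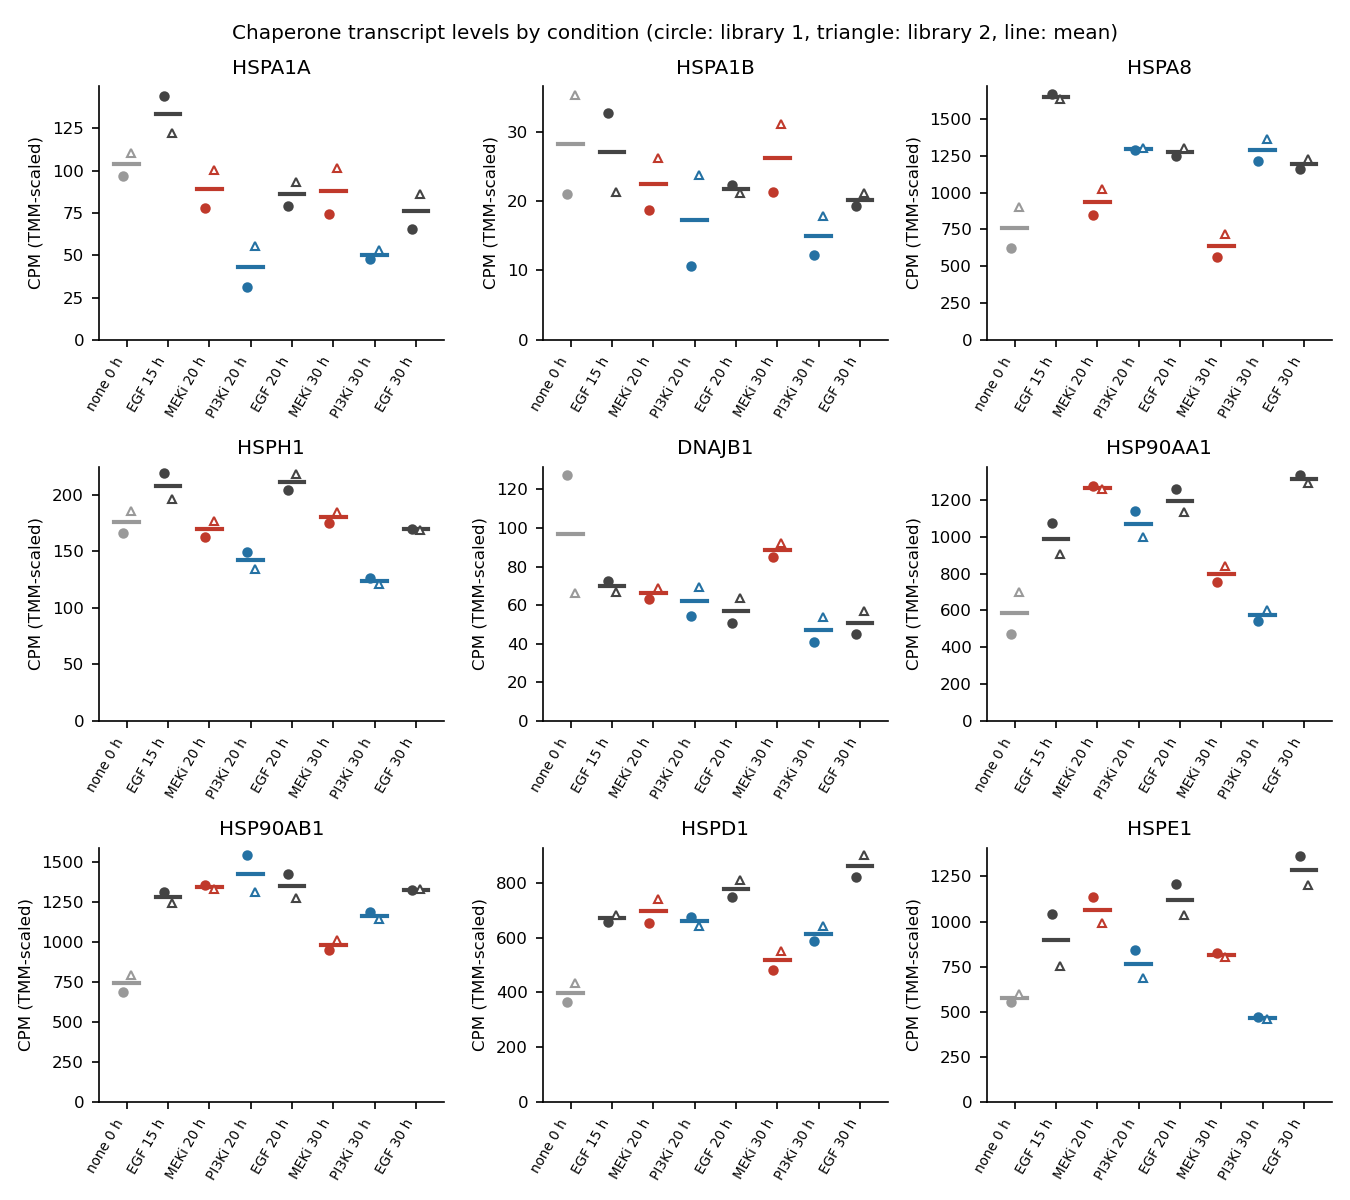
Level of each gene in CPM on TMM-scaled library sizes (y axis, from 0) in the 8 conditions (x axis; MEKi and PI3Ki, the inhibitors), with circles for library 1, triangles for library 2 and lines for their means. HSPA8 is lowest with the MEK inhibitor at 30 h (560.0 and 716 CPM) and HSPE1 with the PI3K inhibitor at 30 h (470.2 and 457 CPM).

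With EGF alone the members then separated. Of the 9 genes, 3 differed between 20 h and 15 h, beside 5.1% (3.44% higher and 1.66% lower) of all genes called. HSPA8 had fallen to 1248 and 1300.2 CPM at 20 h (-0.38 ± 0.10, adjusted p = 0.00694) and HSPA1A to 78.8 and 93.4 CPM (-0.77 ± 0.12, adjusted p = 5.28e-06). HSPE1 had risen, to 1210.2 and 1034 CPM (0.31 ± 0.10, adjusted p = 0.0460). Of 12 alternatives, 8 ended the HSPE1 call, 5 that of HSPA8 and 3 that of HSPA1A. All 3 were lost without the block and in low-cycling cells, HSPA1A and HSPA8 also without library 1 at 15 h, HSPA8 and HSPE1 without library 2 at 20 h or without library 1 at 20 h, and HSPE1 without library 2 at 15 h, with DESeq2 and with upper quartile scaling. The other 6 members had adjusted p from 0.0603 to 0.972. Between 30 h and 20 h 1 gene was called, beside 7.79% (4.51% higher and 3.27% lower) of all genes: HSPH1, at 170.2 and 169 CPM at 30 h against 204 and 219 CPM at 20 h (-0.32 ± 0.09, adjusted p = 0.0203), a call lost when any of the 4 sums was left out. The other 8 had adjusted p from 0.216 to 0.923.

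At 30 h of EGF, 5 of the 9 genes were higher and 2 lower than in unstimulated cells, beside 33.8% (17.6% higher and 16.2% lower) of all genes called. HSP90AA1 reached 1337 and 1293 CPM, 2.42-fold above the unstimulated level (1.27 ± 0.12, adjusted p = 1.89e-12). HSPE1, at 1362 and 1204 CPM, was 2.31-fold higher (1.21 ± 0.11, adjusted p = 5.03e-13), and HSPD1, at 822 and 901 CPM, was 2.21-fold higher (1.14 ± 0.11, adjusted p = 1.13e-12). These 3 had their highest mean of the 8 conditions here, while HSPA8 and HSPA1A peaked at 15 h. HSPA8 was higher (0.72 ± 0.11, adjusted p = 4.57e-07, but 0.0622 in low-cycling cells), as was HSP90AB1 at 1322 and 1327 CPM (0.88 ± 0.10, adjusted p = 1.04e-09). The lower members were DNAJB1, at 45.1 and 56.8 CPM (-1.23 ± 0.17, adjusted p = 9.44e-08), and HSPA1A, at 65.7 and 86.1 CPM (-0.49 ± 0.17, adjusted p = 0.0264). Without the unstimulated sum of library 1 neither lower call remained, and the HSPA1A call was lost in 8 of 12 alternatives.

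With the MEK inhibitor the constitutive HSP70 was lower at both times. At 20 h, 5 h after its addition, 2 of the 9 genes differed from EGF alone, both lower, beside 11.9% (4.8% higher and 7.15% lower) of all genes called, and the members' median log2 difference was -0.0047 against 0.01 over all genes. HSPA8 had 848 and 1024 CPM under the MEK inhibitor, against 1248 and 1300.2 CPM under EGF alone. The groups did not overlap, and the fall of 1.37-fold (-0.45 ± 0.10) had an adjusted p of 0.000614. HSPH1 had 163 and 177 CPM with the inhibitor and 204 and 219 CPM with EGF alone (-0.31 ± 0.09, adjusted p = 0.0233). Without the block neither passed (adjusted p = 0.274 for HSPA8 and 0.263 for HSPH1). Leaving out either library 1 sum also ended the HSPA8 call, and leaving out any of the 4 sums ended that of HSPH1. The other 7 members had adjusted p from 0.257 (HSPD1, 655 and 742 CPM against 749 and 809 CPM) to 0.995 (HSPA1B). HSP90AA1, the inducible HSP90, stood at 1275 and 1258 CPM with the inhibitor, against 1259 and 1136 CPM with EGF alone (adjusted p = 0.682).

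By 30 h the MEK inhibitor had lowered 5 members and raised 2, beside 37.8% (18.9% higher and 19.0% lower) of all genes called, with a median log2 difference of -0.44 against 0.01 over all genes. HSPA8 had 560.0 and 716 CPM with the MEK inhibitor, against 1159 and 1231 CPM with EGF alone. This was the largest fall among the members, 1.88-fold (-0.91 ± 0.10, adjusted p = 4.30e-11), and the inhibitor's mean lay below that of unstimulated cells, with overlapping values. HSPD1 had 482 and 553 CPM with the inhibitor and 822 and 901 CPM with EGF alone (-0.73 ± 0.09, adjusted p = 8.92e-10). HSPE1 had 823 and 804 CPM against 1362 and 1204 CPM (-0.65 ± 0.09, adjusted p = 8.37e-08). Both the chamber and the lid of the mitochondrial chaperonin were thus lower than with EGF alone, and neither gene's groups overlapped.

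HSP90AA1 had 757 and 844 CPM with the MEK inhibitor at 30 h and 1337 and 1293 CPM with EGF alone (-0.71 ± 0.10, adjusted p = 8.48e-08). HSP90AB1 had 948 and 1008 CPM with the inhibitor and 1322 and 1327 CPM with EGF alone (-0.44 ± 0.09, adjusted p = 9.05e-05), a call lost without the block. The HSP70 partner DNAJB1 went the other way. It had 85.1 and 92.2 CPM with the inhibitor and 45.1 and 56.8 CPM with EGF alone, a rise of 1.73-fold (0.79 ± 0.12, adjusted p = 3.72e-07) seen in both libraries. HSPA1B had 21.3 and 31.2 CPM against 19.3 and 21.1 CPM (0.41 ± 0.17, adjusted p = 0.0499), at the threshold, and 7 of 13 alternatives ended its call. HSPA1A, at 74.1 and 101 CPM against 65.7 and 86.1 CPM, and HSPH1, at 175 and 185 CPM against 170.2 and 169 CPM, did not pass the test (adjusted p = 0.139 and 0.450).

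With the PI3K inhibitor at 20 h, 4 of the 9 genes were lower and none higher than with EGF alone, beside 23.4% (11.4% higher and 11.9% lower) of all genes called. The largest fall was that of HSPA1A. It had 31.2 and 55.4 CPM with the PI3K inhibitor and 78.8 and 93.4 CPM with EGF alone, 2.08-fold less (-1.06 ± 0.14, adjusted p = 9.35e-08). HSPE1 had 839.6 and 685 CPM with the inhibitor and 1210.2 and 1034 CPM with EGF alone (-0.56 ± 0.09, adjusted p = 9.39e-06). HSPH1 had 149.5 and 135 CPM against 204 and 219 CPM (-0.56 ± 0.10, adjusted p = 1.77e-05). In these 3 genes the groups did not overlap, and without the block the HSPE1 call was lost (adjusted p = 0.0755). The HSPH1 call was lost in low-cycling cells (adjusted p = 0.0912). HSPD1 had 676 and 645 CPM against 749 and 809 CPM (-0.23 ± 0.09, adjusted p = 0.0462), a call that 9 of 13 alternatives ended. HSPA8, which was lower with the MEK inhibitor at this time, had 1291 and 1305 CPM with the PI3K inhibitor (adjusted p = 0.877, 95% interval of the log2 difference -0.16 to 0.21). HSP90AA1 (1138 and 1001 CPM, adjusted p = 0.261), HSP90AB1 (1542 and 1308 CPM, adjusted p = 0.578), DNAJB1 (54.5 and 69.3 CPM, adjusted p = 0.606) and HSPA1B (10.7 and 23.8 CPM, adjusted p = 0.0976) did not pass either.

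At 30 h the PI3K inhibitor had lowered 5 of the 9 genes and raised none, beside 39.7% (19.7% higher and 20.0% lower) of all genes called, with a median log2 difference of -0.45 against 0.01 over all genes. HSPE1 had 470.2 and 457 CPM with the PI3K inhibitor, against 1362 and 1204 CPM with EGF alone. The fall of 2.76-fold (-1.46 ± 0.09, adjusted p = 1.83e-18) was the largest of any member in an inhibitor comparison, and brought HSPE1 below its unstimulated level of 552 and 596 CPM. HSP90AA1 had 545 and 605 CPM with the inhibitor and 1337 and 1293 CPM with EGF alone, 2.28-fold less (-1.19 ± 0.10, adjusted p = 5.53e-14). The other lower members changed by smaller amounts, and none of their groups overlapped. HSPA1A had 47.5 and 53.2 CPM against 65.7 and 86.1 CPM (-0.60 ± 0.12, adjusted p = 8.65e-05; without the block adjusted p = 0.0680). HSPD1 had 587 and 641 CPM against 822 and 901 CPM (-0.49 ± 0.09, adjusted p = 6.48e-06). HSPH1 had 127 and 121 CPM against 170.2 and 169 CPM (-0.45 ± 0.09, adjusted p = 8.70e-05).

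The other 4 members did not pass the test at 30 h of the PI3K inhibitor. HSPA8 had 1217 and 1364 CPM with it (adjusted p = 0.379, interval -0.08 to 0.29) and HSP90AB1 1185 and 1139 CPM (adjusted p = 0.0857, interval -0.37 to -0.01). DNAJB1 had 41.0 and 53.7 CPM (adjusted p = 0.557) and HSPA1B 12.2 and 17.9 CPM (adjusted p = 0.0980). Library totals in place of TMM scaling, which move the median of all genes by -0.24 in this comparison, called HSP90AB1, DNAJB1 and HSPA1B lower too, 8 members in all, and turned the uncalled HSPA8 difference to -0.12 (adjusted p = 0.263).

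**Figure D2:**
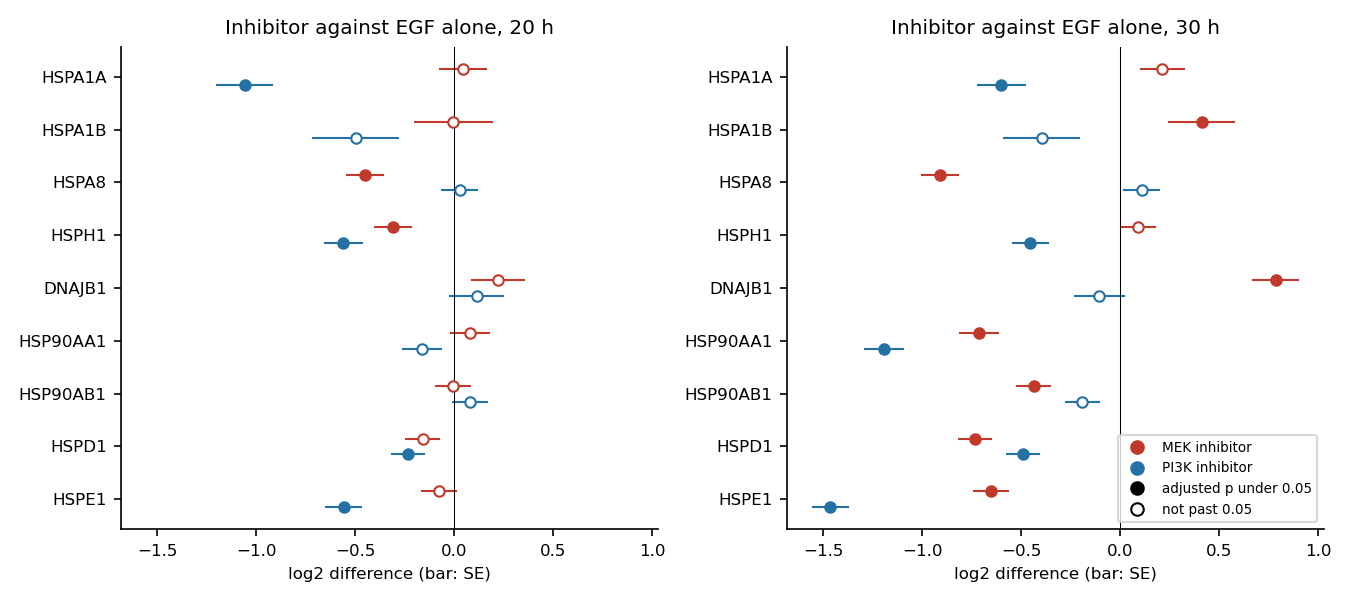
Log2 difference of each gene between an inhibitor and EGF alone at 20 h (left) and 30 h (right), with bars for the SE of the fit over both libraries and filled points for adjusted p under 0.05. At 30 h the largest falls are HSPE1 (-1.46) and HSP90AA1 (-1.19) with the PI3K inhibitor and HSPA8 (-0.91) with the MEK inhibitor, and DNAJB1 rises by 0.79 with the MEK inhibitor.

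Both inhibitor comparisons at a time share the EGF-alone sums, so the inhibitors were also compared directly. At 20 h, 3 members differed between the MEK and the PI3K inhibitor, beside 21.6% (11.2% higher and 10.4% lower) of all genes called. HSPA1A was higher with the MEK inhibitor (78.1 and 100.2 CPM against 31.2 and 55.4 CPM, 1.10 ± 0.15, adjusted p = 6.47e-08), as was HSPE1 (1134 and 994 CPM against 839.6 and 685 CPM, 0.48 ± 0.09, adjusted p = 0.000101). HSPA8 was lower with the MEK inhibitor (-0.48 ± 0.10, adjusted p = 0.000150). The calls of HSPE1 and HSPA8 were lost without the block.

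At 30 h all 9 members differed between the inhibitors, 6 higher and 3 lower with the MEK inhibitor, beside 41.6% (21.2% higher and 20.3% lower) of all genes called. HSPA8 was 2.03-fold lower with the MEK inhibitor (-1.02 ± 0.10, adjusted p = 6.15e-13). Higher with it were DNAJB1 (0.89 ± 0.12, adjusted p = 1.54e-08), HSPE1 (0.81 ± 0.09, adjusted p = 3.23e-10), HSPA1A (0.81 ± 0.12, adjusted p = 1.48e-07) and HSPH1 (0.55 ± 0.09, adjusted p = 2.71e-06). These 5 calls held under each of the 13 alternatives. HSPA1B (0.81 ± 0.18, adjusted p = 0.000178) and HSP90AA1 (0.48 ± 0.10, adjusted p = 0.000122) were also higher. The HSPA1B call was lost without the MEK inhibitor sum of library 2 (adjusted p = 0.0562), and that of HSP90AA1 without the block and in low-cycling cells. HSPD1 and HSP90AB1 were lower by smaller amounts, both -0.25 ± 0.09, with adjusted p of 0.0182 and 0.0230, and 6 and 7 alternatives ended these calls.

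The effects grew or changed between 20 h and 30 h. The difference between the MEK inhibitor and EGF alone was more negative at 30 h for HSP90AA1 (-0.79 ± 0.14, adjusted p = 0.000129), HSPD1 (-0.58 ± 0.12, adjusted p = 0.00129) and HSPE1 (-0.58 ± 0.13, adjusted p = 0.00271), from the interaction term of the fit. These are 3 of 6 members whose MEK inhibitor effect changed, beside 5.58% (2.92% higher and 2.66% lower) of all genes. For the PI3K inhibitor 2 members changed, beside 5.65% (2.4% higher and 3.25% lower) of all genes: HSP90AA1 (-1.03 ± 0.14, adjusted p = 1.36e-06) and HSPE1 (-0.90 ± 0.13, adjusted p = 3.05e-06). Without the block, and among low-cycling cells, no member passed for either inhibitor. In the cells with the inhibitor themselves, HSP90AA1 was lower at 30 h than at 20 h with the MEK inhibitor (-0.66 ± 0.10, adjusted p = 1.19e-06) and with the PI3K inhibitor (-0.90 ± 0.10, adjusted p = 6.16e-09). Between 30 h and 20 h, 6 members were called with the MEK inhibitor, 1 higher and 5 lower, beside 21.3% (12% higher and 9.29% lower) of all genes. With the PI3K inhibitor 3 were called, all lower, beside 11.1% (5.49% higher and 5.6% lower).

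The share of low-cycling cells, cut at each library's own medians, moved with these comparisons. At 30 h low-cycling cells made up 58.1% and 32.8% of MEK-inhibited cells. Their share was 67.3% and 71.2% with the PI3K inhibitor, against 13.9% and 9.59% with EGF alone. Of the S phase list, 34 of 40 tested genes were lower under the MEK inhibitor and 35 under the PI3K inhibitor. Of 52 G2/M genes the MEK inhibitor had 6 lower and 9 higher, and the PI3K inhibitor 51 lower. Of all genes, 19.0% were lower and 18.9% higher with the MEK inhibitor, and 20.0% lower and 19.7% higher with the PI3K inhibitor. The G2/M counts with the MEK inhibitor did not exceed these shares. With the MEK inhibitor the G2/M counts turn with the scaling, to 14 lower and 4 higher with library totals and 6 lower and 12 higher with upper quartile scaling. Among low-cycling cells, of which EGF alone at 30 h had 34 and 33, the differences were fitted again.

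HSPA8 and HSPD1 stayed lower with the MEK inhibitor among low-cycling cells. HSPA8 had 450.2 and 543 CPM in low-cycling cells with the MEK inhibitor and 906 and 884 CPM in those with EGF alone (-0.85 ± 0.12, adjusted p = 9.47e-07). HSPD1 had 439.8 and 485 CPM against 619 and 688 CPM (-0.50 ± 0.12, adjusted p = 0.00395). The HSP90 and lid genes did not pass there: HSP90AA1 differed by -0.27 (adjusted p = 0.215), HSPE1 by -0.25 (adjusted p = 0.217) and HSP90AB1 by -0.02 (adjusted p = 0.963). DNAJB1 had 67.9 and 90.6 CPM against 49.1 and 49.5 CPM, a difference of 0.69 near that in all cells, with an adjusted p of 0.0971.

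With the PI3K inhibitor, low-cycling cells kept the HSPE1 fall, at 435 and 429.5 CPM against 967 and 799 CPM with EGF alone (-1.02 ± 0.12, adjusted p = 1.77e-08). HSP90AA1 kept its call at a smaller size, with 482 and 539 CPM against 742 and 736 CPM (-0.53 ± 0.13, adjusted p = 0.00320). HSPA1A was also called lower there (-0.67 ± 0.23, adjusted p = 0.0495). HSPD1 (-0.17, adjusted p = 0.418) and HSPH1 (-0.28, adjusted p = 0.372) did not pass. HSPA8 was higher in low-cycling cells with the PI3K inhibitor, at 1122 and 1290.4 CPM against 906 and 884 CPM (0.43 ± 0.12, adjusted p = 0.0122), a difference that did not pass over all cells. At 20 h the HSPA1A fall was -1.47 ± 0.22 in low-cycling cells (adjusted p = 3.90e-06) and -0.87 ± 0.17 in the others (adjusted p = 0.000251).

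**Figure D3:**
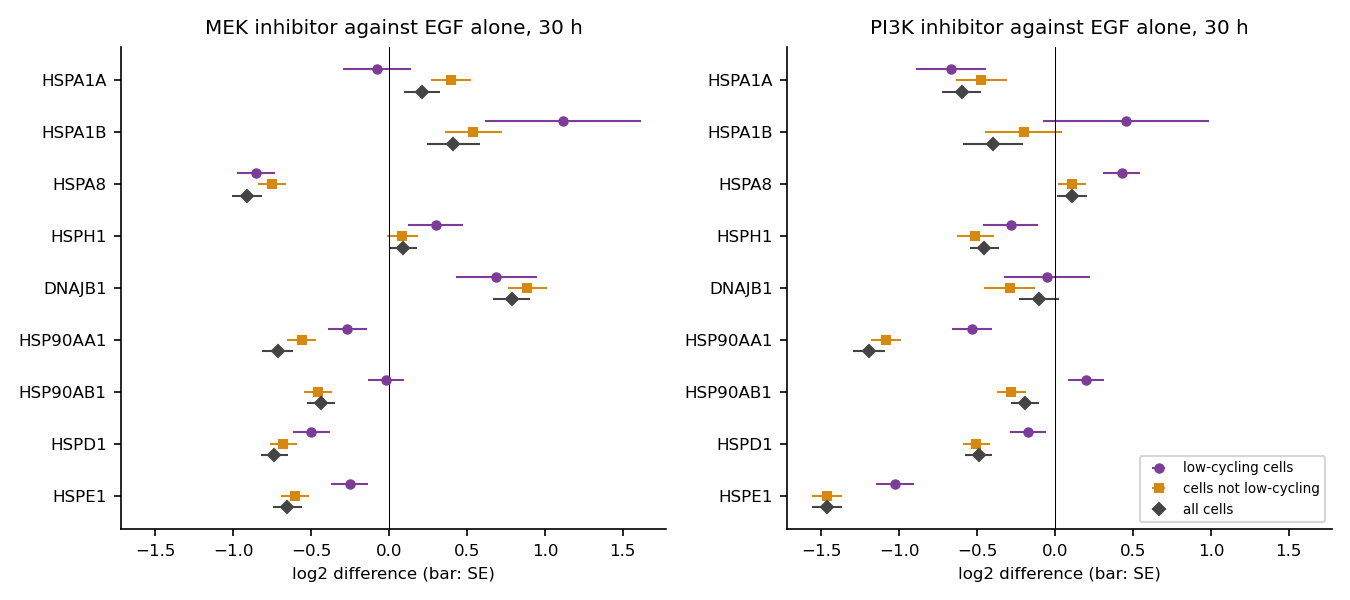
Log2 difference with the MEK inhibitor (left) and the PI3K inhibitor (right) against EGF alone at 30 h in low-cycling cells (circles), the other cells (squares) and all cells (diamonds), with bars for the SE of each fit. HSPA8 with the MEK inhibitor lies at -0.85, -0.75 and -0.91 in these cells, while HSP90AA1 with the PI3K inhibitor lies at -0.53, -1.08 and -1.19.

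Partners of the same machine did not always move together. The ratio of HSPE1 to HSPD1 UMIs was 0.801 and 0.713 with the PI3K inhibitor at 30 h and 1.71 and 1.45 with the MEK inhibitor, against 1.66 and 1.34 with EGF alone. The lid transcript thus lost ground to the chamber transcript with the PI3K inhibitor in both libraries, and its ratio was the lowest of the 8 conditions. HSP90AA1 to HSP90AB1 was 0.460 and 0.531 with the PI3K inhibitor, and the MEK inhibitor gave 0.798 and 0.837, against 1.01 and 0.974 for EGF alone at 30 h. HSPA1A to HSPA8 was 0.132 and 0.141 under the MEK inhibitor at 30 h, the PI3K inhibitor gave 0.0390 and 0.0390, and EGF alone 0.0567 and 0.0699. Capture differs between genes, so only the change of a ratio between conditions can be read, and these ratios were given no test.

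**Figure D4:**
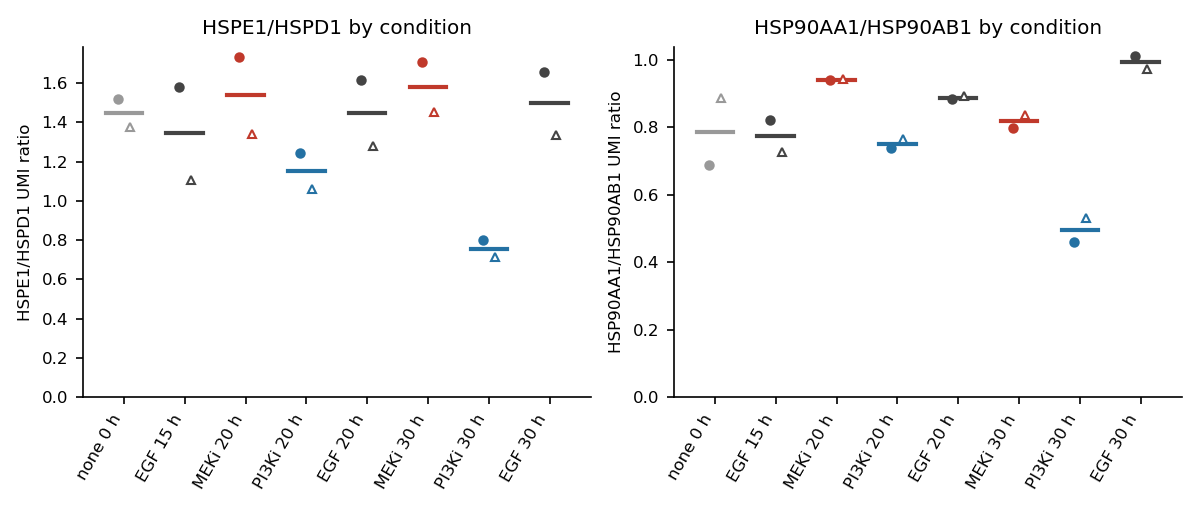
Ratio of UMIs of HSPE1 to HSPD1 (left) and of HSP90AA1 to HSP90AB1 (right) in the 8 conditions, with circles for library 1, triangles for library 2 and lines for the mean. Both ratios are lowest with the PI3K inhibitor at 30 h, at 0.801 and 0.713 and at 0.460 and 0.531.

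Some of these genes cannot be counted apart from a neighbour or copy with certainty. Of the 90-base stretches in the last 500 bases of the HSPA1A transcripts, 14.6% also occur in HSPA1B, while none of those of HSPA1B occur in another annotated gene. Of those of HSPE1, 15.3% occur in other annotated genes, mainly the readthrough gene HSPE1-MOB4. In GENCODE v29 on GRCh38 HSPE1 (chr2:197499994-197503457, plus strand) lies within the span of HSPD1 (chr2:197486581-197516737, minus strand), and no source read here states whether the counting used strand.

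The wider chaperone network moved with these genes in part. The cytosolic chaperonin TRiC/CCT, which folds actin and tubulin, had 7 of 8 tested subunits higher and none lower at 15 h of EGF. Of all genes, 14.1% were higher and 13.9% lower in that comparison. With the MEK inhibitor at 30 h all 8 subunits were lower (median log2 difference -0.51), and with the PI3K inhibitor 6 of 8 (median -0.28), against a median of 0.01 over all genes each time. Of all genes, 19.0% were lower with the MEK inhibitor and 20.0% with the PI3K inhibitor. Of 14 HSP90 cochaperones, 10 were higher and 1 lower at 15 h of EGF, beside 14.1% higher and 13.9% lower of all genes. At 30 h the MEK inhibitor had 10 of them lower and 2 higher, with CACYBP the most lowered (-0.91 ± 0.10, adjusted p = 4.93e-10), and the PI3K inhibitor 8 lower and 2 higher, led by CHORDC1 (-1.22 ± 0.13, adjusted p = 2.60e-11). With library totals the PI3K inhibitor had 9 cochaperones lower and 0 higher, and all 8 TRiC/CCT subunits lower. At 20 h the chaperonin had 1 of 8 subunits lower with the PI3K inhibitor, beside 11.4% higher and 11.9% lower of all genes. With the MEK inhibitor 0 were called (edgeR), beside 4.8% higher and 7.15% lower of all genes.

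Counts of the remaining lists at 30 h are read beside the 18.9% higher and 19.0% lower of all genes with the MEK inhibitor and the 19.7% higher and 20.0% lower with the PI3K inhibitor. Of 13 tested J-domain proteins that serve HSP70, 2 were higher and 4 lower with the MEK inhibitor at 30 h, and 1 higher and 5 lower with the PI3K inhibitor. With library totals the MEK inhibitor had 2 higher and 7 lower. DNAJA1, a cytosolic J-domain protein, had 95.6 and 125 CPM with the PI3K inhibitor at 20 h and 288 and 295 CPM with EGF alone (-1.43 ± 0.11, adjusted p = 1.04e-14). It was also lower with the PI3K inhibitor at 30 h (-1.04 ± 0.10, adjusted p = 4.34e-12). DNAJB2, whose product feeds HSP70 clients to the proteasome, had 22.9 and 37.2 CPM with the MEK inhibitor at 30 h against 4.22 and 7.44 CPM with EGF alone (2.35 ± 0.20, adjusted p = 8.42e-14). DNAJB2 was thus higher in the same comparison as DNAJB1.

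Of 12 mitochondrial chaperones and proteases, 6 were lower and none higher with the MEK inhibitor at 30 h, led by GRPEL1, the exchange factor of mitochondrial HSP70 (-0.72 ± 0.10), and 6 were lower and 1 higher with the PI3K inhibitor, led by mitochondrial HSP70 itself, HSPA9 (-0.74 ± 0.09). Library totals gave 10 lower and none higher with the MEK inhibitor, and 9 lower and none higher with the PI3K inhibitor. Of 15 chaperones of the endoplasmic reticulum, 5 fell and 1 rose with the MEK inhibitor at 30 h. The PI3K inhibitor had 6 lower and 3 higher, among them DNAJB9, a J-domain partner of the HSP70 of this compartment, at 26.4 and 40.3 CPM against 13.7 and 11 CPM (adjusted p = 4.92e-09). With library totals these counts were 9 lower and none higher with the MEK inhibitor, and 9 lower and 2 higher with the PI3K inhibitor. Of 8 nucleotide exchange factors and helpers of HSP70, 2 were lower and 2 higher with the MEK inhibitor, among them BAG1 (0.58 ± 0.09), and 2 were lower and 3 higher with the PI3K inhibitor, BAG1 again among them (0.75 ± 0.09). Library totals gave 3 lower and 1 higher with the MEK inhibitor, and 2 lower and 2 higher with the PI3K inhibitor. Of 6 prefoldin subunits, 1 fell and 1 rose with the MEK inhibitor, while the PI3K inhibitor had 3 lower and 2 higher. With library totals these became 5 lower and 0 higher with the MEK inhibitor and 4 lower and 0 higher with the PI3K inhibitor. Of 6 other HSP70 and HSP110 genes, 1 was lower and 1 higher with the MEK inhibitor, and 2 lower and 1 higher with the PI3K inhibitor, HSPA4L being the most lowered (-1.01 ± 0.14). Here library totals gave 1 lower and 0 higher with the MEK inhibitor, and 3 lower and 0 higher with the PI3K inhibitor. HSF1 passed the test in 1 of the 4 inhibitor comparisons, with 66.9 and 72.7 CPM with the PI3K inhibitor at 30 h and 51.4 and 51.9 CPM with EGF alone (0.44 ± 0.12, adjusted p = 0.00343), a call that library totals ended (0.20, adjusted p = 0.181). With the MEK inhibitor at 30 h HSF1 was at -0.31 ± 0.13 (adjusted p = 0.0563), and library totals called it lower (-0.48, adjusted p = 0.00223). Of 3 small heat shock proteins tested, 2 were higher with the MEK inhibitor at 30 h, led by CRYAB (4.40 ± 0.21, adjusted p = 2.08e-23).

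**Figure D5:**
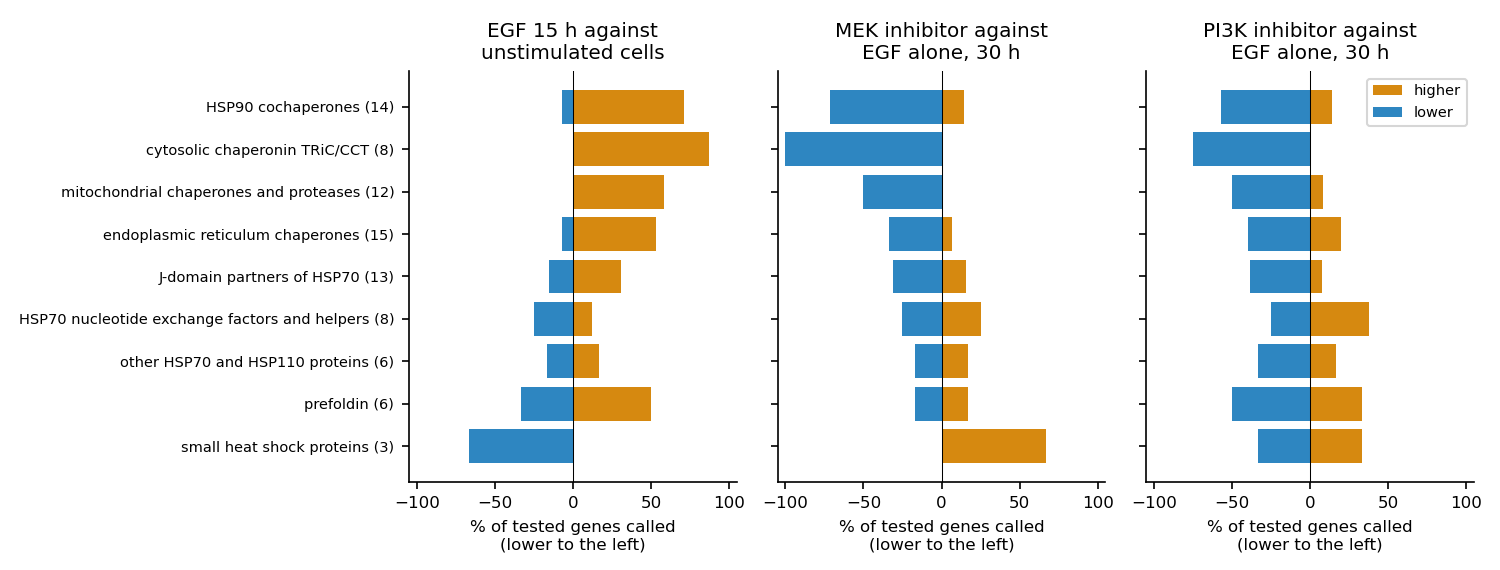
Share of the tested genes of each chaperone list (number tested in brackets) called higher (right of 0) or lower (left of 0) at 15 h of EGF against unstimulated cells and with each inhibitor against EGF alone at 30 h. All 8 TRiC/CCT subunits are lower with the MEK inhibitor, and 6 of 8 with the PI3K inhibitor.

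Across the 8 conditions, the genes with the profile most like a member differed between members. For each pair Pearson's r of log2 CPM was taken over 8 conditions, the lower of the 2 libraries, among 4706 genes of at least 20 CPM. HSP90AA1 was most like RANBP1 (r = 0.970), CACYBP (0.962), ORC6 (0.959) and CHCHD3 (0.957), and HSPD1 most like the TRiC/CCT subunit CCT3 (0.973), SUB1 (0.960), GLRX2 (0.950), SERBP1 (0.948) and PRELID1 (0.948). HSPA1A had no neighbour above PITX1 (0.853), which PELO (0.846), AMD1 (0.833), SLC3A2 (0.819) and IWS1 (0.806) followed. Among the members themselves HSP90AA1 and HSPE1 reached 0.937 and HSPD1 and HSP90AB1 0.907, while HSPA1A and HSPA8 stood at -0.28. The points share libraries and depth, and the same EGF time course shapes all of them.

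The falls of HSPE1 and HSPA8 at 30 h also stood in the median cell. In cells thinned to 5000 UMIs the median number of HSPE1 UMIs was 2 in both libraries with the PI3K inhibitor, against 6 in both with EGF alone. The median number of HSPA8 UMIs was 2 and 3 with the MEK inhibitor, against 5 and 7 with EGF alone. In cells thinned to 5000 UMIs, the median variance over mean across the 16 sums was 1.48 for HSP90AA1, 1.47 for HSPA8, 1.43 for HSP90AB1, 1.34 for HSPE1 and 1.21 for HSPD1, where Poisson sampling alone gives a variance equal to the mean. It was 1.13 for HSPH1, 1.09 for HSPA1A, 0.992 for HSPA1B and 0.988 for DNAJB1. HSPA1A reached 2.70 in library 1 at 15 h, where the cell with 26 UMIs lay. At few UMIs per cell this ratio stays near that of Poisson sampling, and at 8000 UMIs it was 1.76 for HSP90AA1 and 1.65 for HSPA8.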

How the data were processed

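The authors deposited raw UMI counts per gene and cell for 2 libraries, each 1 replicate pooling 8 tagged conditions, and tables that assign cell barcodes to conditions. Per the submitters' processing notes, Cell Ranger 3.0.2, Seurat and GRCh38 were used; how tags were called and cells filtered is not stated. Barcodes called doublets in the deposited tag tables (4848 of 8641 and 2478 of 6161) were not among the cells used, and no further doublet caller was run. For each condition the cells of a library were added up, and the sums were tested in R 4.3.3 with edgeR 4.0.16 (limma 3.58.1): TMM scaling, filterByExpr, glmQLFit and glmQLFTest with the library as a block, on 16 sums with 7 residual degrees of freedom, a common biological coefficient of variation of 0.0604 and Benjamini-Hochberg adjustment over 11147 genes. DESeq2 1.42.0 served as an alternative. The library pairs the sums: in a library, 2 conditions' deviations from their means had a median r of 0.588 (28 pairs, 0.281 to 0.677). The design text calls each library a biological replicate. With the block, the overall difference between these 2 libraries is removed. The p-values set a difference between conditions against the spread left between the libraries. That spread is pooled over the sums and moderated across genes. The moderation had a median of 43.3 prior degrees of freedom beside the 7 residual ones, so it draws largely on other genes. SE is that of the log2 difference. Per-cell values used cells thinned to 5000 UMIs. Members and gene lists were chosen with earlier results of these data known. Of other lists, only called genes with the largest rise or fall in an inhibitor or 30 h comparison were named, at most 3 a list. A gene of like profile that the rule picks is not reported here. The fit was tested on simulated data. Median UMIs per cell were 7024 to 16000, which limits the precision of genes of few UMIs.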

Additional observations from a re-analysis of the deposited data

Results flagged for a closer look

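The effect of an inhibitor at 30 h differed from its effect at 20 h for 8 of the values tested, by the interaction term of the edgeR fit over 2 libraries. For the MEK inhibitor the log2 change of the effect was -0.79 ± 0.14 for HSP90AA1 (adjusted p = 0.000129), -0.58 ± 0.12 for HSPD1 (adjusted p = 0.00129) and -0.58 ± 0.13 for HSPE1 (adjusted p = 0.00271). It was -0.46 ± 0.13 for HSPA8 (adjusted p = 0.0319) and -0.43 ± 0.13 for HSP90AB1 (adjusted p = 0.0318), so the difference from EGF alone was more negative at the later time for these 5 genes. Of 17 alternatives, 10 ended the HSPA8 call and 10 that of HSP90AB1, and with 1 of the 8 sums left out the calls held in 2 and 1 of 8 fits. DNAJB1 changed the other way, by 0.57 ± 0.18 (adjusted p = 0.0492), a call that leaving out any 1 of the 8 sums ended. For the PI3K inhibitor the change was -1.03 ± 0.14 for HSP90AA1 (adjusted p = 1.36e-06) and -0.90 ± 0.13 for HSPE1 (adjusted p = 3.05e-06), and both calls held when each of the 8 sums was left out. Low-cycling cells were 27.8% and 25.4% of cells with the MEK inhibitor at 20 h against 58.1% and 32.8% at 30 h, and their part in these changes was not tested.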

How the results depend on the processing

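Of 65 calls of the 9 genes in 14 comparisons, 22 held under every alternative that gave a test; 31 held without the block, 33 in low-cycling cells, 55 in cells that are not low-cycling (an alternative chosen after seeing the data), 58 after thinning to 5000 UMIs per cell, 60 with library totals, 63 with upper quartile scaling, 59 with DESeq2 and 62 with no filter on low counts. With 6 conditions in the fit 48 of 48 held. Without the replicate block, which ignores the pairing by library, the number of members called was 0 at 20 h against 15 h of EGF, 0 at 30 h against 20 h, 0 for the MEK inhibitor at 20 h, 2 for the PI3K inhibitor at 20 h, 1 between inhibitors at 20 h, 1 and 1 for the MEK and the PI3K inhibitor between 30 h and 20 h, and 0 and 0 for the changes of their effects; at an unadjusted p under 0.05 those with 0 had 1, 1, 2, 4 and 2 members, and DESeq2 called 2, 1, 2, 4 and 2. In low-cycling cells these counts were 0 at 20 h against 15 h of EGF, 0 at 30 h against 20 h, 1 and 2 for the MEK and PI3K inhibitors at 20 h, 2 for the MEK inhibitor at 30 h, 2 for it between 30 h and 20 h, and 0 and 0 for the changes of effect; those with 0 had 2, 4, 3 and 4 at an unadjusted p under 0.05, and DESeq2 over all cells called 2, 1, 4 and 2. Thinning gave 0 at 30 h against 20 h of EGF (1 unadjusted, 1 by DESeq2), and cells that are not low-cycling gave 1 for the MEK inhibitor at 20 h. Library totals gave 8 for the PI3K inhibitor at 30 h, 5 between inhibitors at 20 h, 5 for the PI3K inhibitor between 30 h and 20 h and 4 for the change of its effect, and 6 conditions gave 5 between inhibitors at 20 h. Leaving out 1 sum gave 5 to 8 calls at 15 h of EGF, 1 to 4 at 20 h against 15 h, 0 at 30 h against 20 h (1 unadjusted, 1 by DESeq2), 5 to 7 at 30 h against unstimulated cells, 0 to 1 for the MEK inhibitor at 20 h (the 0 with 1 or 2 unadjusted and 2 by DESeq2), 3 to 4 for the PI3K inhibitor at 20 h, 6 to 7 and 5 at 30 h, 3 to 4 and 7 to 8 between inhibitors at 20 h and 30 h, 4 to 6 and 2 to 3 between times, and 3 to 5 and 2 to 3 for the changes of effect. Of these calls 2 turned: DNAJB1 at 15 h of EGF ranged from -0.95 to 0.31 with 1 sum left out, 0.31 without the unstimulated sum of library 1 and 0.01 in library 2 alone, and HSPA1A at 30 h of EGF against unstimulated cells was 2.74e-05 in cells that are not low-cycling. The cause was not tested.

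Library totals moved the median of all genes by 0.19 at 15 h and 0.26 at 30 h of EGF against unstimulated cells, by -0.14 for the PI3K inhibitor at 20 h, by -0.18 and -0.24 for the MEK and PI3K inhibitors at 30 h, by -0.11 for the MEK inhibitor between times and by -0.12 for the change of its effect. The split of all genes called higher and lower became 1349 and 3259 for the MEK inhibitor at 30 h, against 2103 and 2113 with TMM, and 1268 and 3688 for the PI3K inhibitor, against 2201 and 2227. At 8000 UMIs per cell the variance over mean was 1.76 for HSP90AA1, 1.65 for HSPA8, 1.54 for HSP90AB1, 1.49 for HSPE1, 1.32 for HSPH1, 1.31 for HSPD1, 1.05 for DNAJB1 and 1.04 for HSPA1B. Depth limits HSPA1B, whose level was 10.7 to 35.3 CPM.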
